A study of Oryza sativa Japonica Group with 10 samples.

Results

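The quantity described here is the difference between the drought responses of OsJAZ1-OE and ZH11 rice, gene by gene. For each gene the change in drought against normal plants was taken within each genotype on the log2 scale, and the ZH11 change was subtracted from the OsJAZ1-OE change. A difference of 1 therefore means that the ratio of drought to normal in OsJAZ1-OE was 2 times that in ZH11, and a negative difference that this ratio was lower in OsJAZ1-OE. All gene IDs in the files were members, 55689 in number, and 24850 of them had enough fragments to be tested. ZH11 (Zhonghua 11) is the wild-type japonica cultivar. OsJAZ1-OE is a single transgenic line in ZH11, labelled line 1, that carries the OsJAZ1 coding sequence behind the drought-inducible promoter of OsLEA3-1. RNA-seq was done on shoots of plants at stage 4 of leaf number, with 2 libraries of OsJAZ1-OE under drought, 3 of OsJAZ1-OE under normal watering, 2 of ZH11 under drought and 3 of ZH11 under normal watering. Drought meant soil at 10 to 15% water. Each genotype had 1 more drought library that the authors left out because it correlated poorly with the others, and it was not analysed here.

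JAZ proteins are repressors of jasmonic acid (JA) signaling. When JA is conjugated to isoleucine, the conjugate bridges a JAZ protein and the F-box receptor COI1, the JAZ protein is degraded, and the bHLH transcription factors it held are freed to act, on JAZ genes among other targets. Rice shoots that dry out also make abscisic acid (ABA), which acts through PYL receptors, PP2C phosphatases, SnRK2 kinases and bZIP factors on genes for protective proteins, and the JA and ABA pathways meet at several of these steps. The difference of the responses asks whether the overexpressed repressor goes with another drought response, apart from any shift present under both conditions.

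The library totals were 32396154 to 34027909 expected counts, which are estimated fragments per transcript summed here over the transcripts of a gene. Levels are given in FPKM, fragments per kilobase of transcript and per unit of mapped fragments, also summed per gene. Replicates of a group correlated with r of 0.986 to 0.991 on a log2 scale across genes. The 2 ZH11 drought libraries stood furthest apart, since 161 of 14999 well expressed genes differed more than 2-fold between them, 132 of these higher in replicate 1, against 8 to 52 genes in every other pair of replicates. Photosynthesis genes marked all libraries as leaf tissue, with a summed level over 8 genes of 7855 to 8248 FPKM in OsJAZ1-OE drought, 10523 to 11861 FPKM in OsJAZ1-OE normal, 8374 to 8700 FPKM in ZH11 drought and 11721 to 12733 FPKM in ZH11 normal libraries. For the root markers Lsi1 and Lsi2 the sum was 7.02 to 8.41, 4.85 to 5.39, 10.1 to 11.6 and 4.52 to 4.93 FPKM in the same order of groups. In bulk shoots, fewer cells of a type and less RNA per cell cannot be told apart. The study describes its replicates as biological, and p values measure the spread between them.

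No gene passed the threshold. At an adjusted p under 0.05 (Benjamini-Hochberg over all genes tested) the quasi-likelihood test of edgeR called 0 of 24850 genes (0%), and the lowest adjusted p was 0.093. At an unadjusted p under 0.05 the same test gave 2097 genes (8.44%), of which 1117 (4.49%) had a positive and 980 (3.94%) a negative difference. Adjusted p values under 0.1 were found for 11 genes, 5 with a positive and 6 with a negative difference. DESeq2, another count model, called 105 of the 17141 genes for which it gave an adjusted p (0.613%), 56 positive and 49 negative, and 1685 genes at an unadjusted p under 0.05. All 105 were at an unadjusted p under 0.05 in edgeR, with all libraries and in each of the 10 fits that left 1 library out. In edgeR 601 genes held that unadjusted p in all of these fits.

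The differences were small for most genes. Their median was 0.01, the quartiles lay at −0.13 and 0.17, and the 1st and 99th percentiles at −1.45 and 1.53, with a median standard error of 0.17. For 18013 genes (72.5%) the whole 95% interval of the difference lay within 1 of 0 on the log2 scale. This share depended on expression, since the interval reached a median of 1.36 to either side in the 4970 least expressed genes and 0.21 in the 4970 most expressed ones. The share at an unadjusted p under 0.05 was 5.51% in these least expressed genes and 13.4% in the most expressed ones. A difference of at least 1 in size was fitted for 1122 genes, of which 337 were at an unadjusted p under 0.05.

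**Figure D1:**
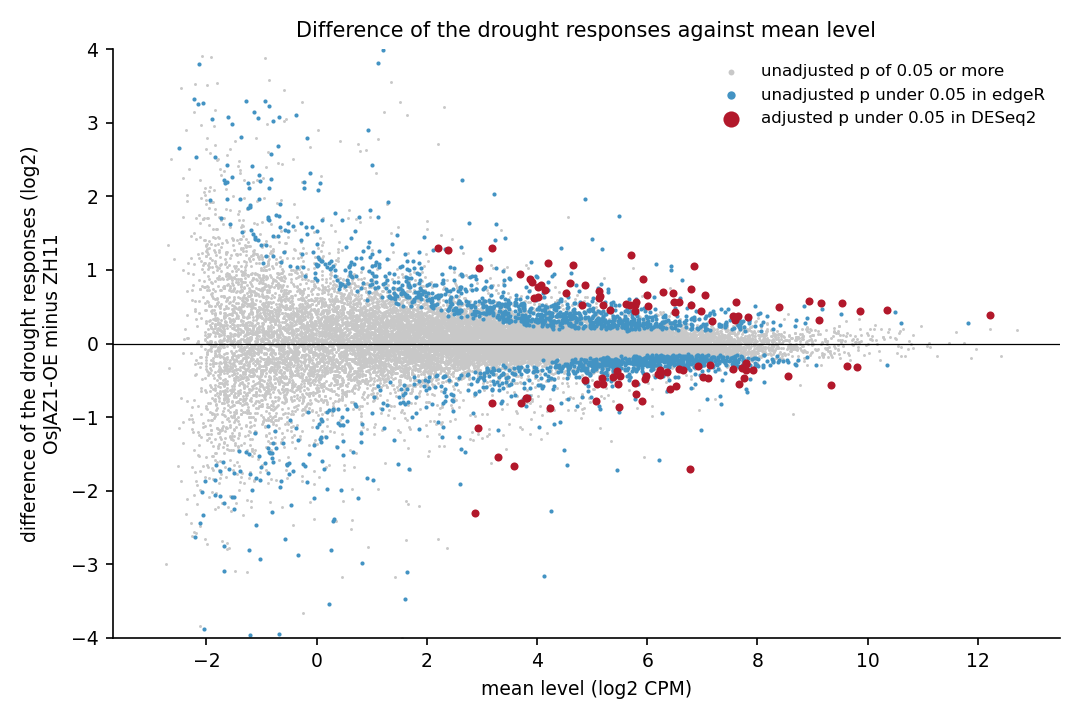
Difference of the drought responses (log2, OsJAZ1-OE minus ZH11) against mean level (log2 CPM, counts scaled to the library total), 1 point per gene of 24850, with 56 genes beyond the vertical axis. Blue points are the genes at an unadjusted p under 0.05 in edgeR and red points the 105 called by DESeq2, which lie on both sides of 0.

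Among the 2097 genes the OsJAZ1-OE response was more often the smaller one. Both genotypes moved in the same direction at 1360 of them, and the change was smaller in OsJAZ1-OE at 1082 (79.6%) and larger at 278. Over all genes tested with the same direction in both genotypes the smaller share was 59.9%, 12320 of 20559. Of the 1117 positive differences, 574 belonged to genes with a decrease in both genotypes, 177 to genes with an increase in both and 366 to genes with fitted responses of opposite sign. Of the 980 negative differences, 508 belonged to genes with an increase in both, 101 to genes with a decrease in both and 371 to genes of opposite sign. The smaller share ranged from 71.8% without OsJAZ1-OE drought replicate 2 to 85.9% without ZH11 drought replicate 1. The 2097 genes were selected on the same fitted difference that sets which response is smaller. The shares of 79.6% and 59.9% are therefore not like for like, and no test was made of them.

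The gene with the lowest p among negative differences of named function was OsGH3.2 (LOC_Os01g55940), a probable indole-3-acetic acid-amido synthetase of the GH3 enzymes that conjugate the hormone auxin to amino acids. It had 7.82 and 8.35 FPKM in OsJAZ1-OE drought and 7.85, 8.60 and 8.50 FPKM in OsJAZ1-OE normal libraries, against 10.9 and 11.6 FPKM in ZH11 drought and 4.74, 5.17 and 4.56 FPKM in ZH11 normal libraries. The drought libraries were above the normal ones in ZH11, with no overlap, while the OsJAZ1-OE drought and normal libraries overlapped. The responses were 0.07 in OsJAZ1-OE and 1.22 in ZH11 on the log2 scale, a difference of −1.15 (standard error 0.16, 95% interval −1.51 to −0.79, adjusted p = 0.093 from edgeR). Leaving out each library gave −1.31 to −1.004. OsGH3.2 lies on chromosome 1 from 32221376 to 32225123 in the coordinates of the authors' files, whose genome build no source used here names.

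LOC_Os01g52110, which encodes a protein with RING finger and CHY zinc finger domains, as found in ubiquitin ligases, had 133 and 142 FPKM in OsJAZ1-OE drought and 79.3, 78.3 and 83.4 FPKM in OsJAZ1-OE normal libraries, against 221 and 216 FPKM in ZH11 drought and 88.1, 83.4 and 85.8 FPKM in ZH11 normal libraries. Drought libraries were above normal libraries in both genotypes without overlap, and the ZH11 drought pair was the highest. The difference was −0.57 (standard error 0.08, adjusted p = 0.093 from edgeR) and stayed at −0.59 to −0.53 when each library was left out. The aldehyde dehydrogenase gene LOC_Os09g26880, of a family of enzymes that oxidize reactive aldehydes, showed the same order. It had 54.9 and 56.1 FPKM in OsJAZ1-OE drought and 29.9, 29.1 and 29.4 FPKM in OsJAZ1-OE normal libraries, against 76.5 and 76.2 FPKM in ZH11 drought and 30.5, 30.0 and 28.8 FPKM in ZH11 normal libraries, a difference of −0.45 (standard error 0.07, adjusted p = 0.094 from edgeR). DESeq2 gave these genes adjusted p values of 3.2e-10 and 5.3e-06.

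LOC_Os04g49210, annotated as a naringenin,2-oxoglutarate 3-dioxygenase, an enzyme of flavonoid synthesis, had 2.70 and 2.39 FPKM in OsJAZ1-OE drought and 9.74, 14.7 and 16.5 FPKM in OsJAZ1-OE normal libraries, against 5.71 and 5.34 FPKM in ZH11 drought and 8.80, 8.54 and 8.77 FPKM in ZH11 normal libraries. Here the drought libraries were below the normal ones in both genotypes, and lowest in OsJAZ1-OE. Its responses were −2.34 in OsJAZ1-OE and −0.68 in ZH11, a difference of −1.66 (standard error 0.25, adjusted p = 0.094 from edgeR). It is thus among the 101 genes with a larger decrease in OsJAZ1-OE, and the OsJAZ1-OE normal libraries spanned 9.74 to 16.5 FPKM.

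Without annotation in the sources used here, LOC_Os08g30020 had 98.1 and 93.8 FPKM in OsJAZ1-OE drought and 93.6, 94.5 and 95.5 FPKM in OsJAZ1-OE normal libraries, against 138 and 136 FPKM in ZH11 drought and 88.3, 89.2 and 94.7 FPKM in ZH11 normal libraries, so that only the ZH11 drought libraries stood above the other 8. Its difference was −0.55 (standard error 0.08, adjusted p = 0.093 from edgeR). LOC_Os03g37830, also not annotated there, followed the same order, with 25.7 and 24.6 FPKM in OsJAZ1-OE drought and 27.8, 25.8 and 25.1 FPKM in OsJAZ1-OE normal libraries, against 35.7 and 30.7 FPKM in ZH11 drought and 22.7, 21.6 and 22.5 FPKM in ZH11 normal libraries, and a difference of −0.61 (standard error 0.10, adjusted p = 0.14 from edgeR). LOC_Os05g51630 was higher under drought in both genotypes, with drought libraries at 21.1 and 20.5 FPKM in OsJAZ1-OE and 26.2 and 25.6 FPKM in ZH11 and all normal libraries between 8.78 and 10.4 FPKM. That gave a difference of −0.45 (standard error 0.08, adjusted p = 0.19 from edgeR).

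On the positive side the lowest p of all genes belonged to LOC_Os08g39440, on chromosome 8 from 24938689 to 24947051 and without annotation in the sources used here. It had 26.2 and 25.1 FPKM in OsJAZ1-OE drought and 15.4, 16.6 and 15.5 FPKM in OsJAZ1-OE normal libraries, against 13.8 and 12.8 FPKM in ZH11 drought and 12.7, 13.0 and 13.2 FPKM in ZH11 normal libraries. The OsJAZ1-OE drought pair stood above all other libraries while the ZH11 libraries lay within 12.7 to 13.8 FPKM. The difference was 0.68 (standard error 0.09, 95% interval 0.49 to 0.88, adjusted p = 0.093 from edgeR). LOC_Os02g01060 had 31.0 and 29.1 FPKM in OsJAZ1-OE drought and 15.8, 17.0 and 14.3 FPKM in OsJAZ1-OE normal libraries, against 10.5 and 11.8 FPKM in ZH11 drought and 12.6, 13.0 and 14.0 FPKM in ZH11 normal libraries, with the OsJAZ1-OE drought pair again the highest and the ZH11 drought pair the lowest. Its difference was 1.30 (standard error 0.18, adjusted p = 0.093 from edgeR), with 1.24 to 1.36 when each library was left out.

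LOC_Os03g02460, again without annotation, was set apart by its level. It had 171 and 177 FPKM in OsJAZ1-OE drought and 171, 141 and 155 FPKM in OsJAZ1-OE normal libraries, against 2.52 and 2.82 FPKM in ZH11 drought and 4.73, 5.32 and 4.64 FPKM in ZH11 normal libraries, so that every OsJAZ1-OE library was far above every ZH11 library. Only in ZH11 were the drought libraries below the normal ones without overlap. The responses were 0.20 in OsJAZ1-OE and −0.85 in ZH11, a difference of 1.05 (standard error 0.15, adjusted p = 0.093 from edgeR). LOC_Os09g13470 had 5.28 and 4.48 FPKM in OsJAZ1-OE drought and 16.92, 17.6 and 16.6 FPKM in OsJAZ1-OE normal libraries, against 3.72 and 3.55 FPKM in ZH11 drought and 22.3, 21.7 and 22.7 FPKM in ZH11 normal libraries, below normal under drought in both genotypes and by less in OsJAZ1-OE, and its difference was 0.87 (standard error 0.12, adjusted p = 0.093 from edgeR).

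Several other genes shared this smaller decrease in OsJAZ1-OE. The auxin-induced 5NG4 gene LOC_Os05g33900, of a family of membrane transporters, had 24.6 and 19.6 FPKM in OsJAZ1-OE drought and 37.7, 35.8 and 30.5 FPKM in OsJAZ1-OE normal libraries, against 15.9 and 13.0 FPKM in ZH11 drought and 48.8, 44.8 and 46.6 FPKM in ZH11 normal libraries, and the OsJAZ1-OE libraries lay between the ZH11 drought and normal ones. LOC_Os08g04500, which the study's gene ontology lists place under terpene synthases, had 7.98 and 6.96 FPKM in OsJAZ1-OE drought and 73.0, 61.2 and 62.3 FPKM in OsJAZ1-OE normal libraries, against 5.28 and 5.48 FPKM in ZH11 drought and 82.0, 77.3 and 75.7 FPKM in ZH11 normal libraries, a difference of 0.74 (standard error 0.14, adjusted p = 0.19 from edgeR). The nmrA-like gene LOC_Os12g16220 had 24.6 and 24.3 FPKM in OsJAZ1-OE drought and 36.8, 31.0 and 37.5 FPKM in OsJAZ1-OE normal libraries, against 16.1 and 14.5 FPKM in ZH11 drought and 35.8, 33.7 and 30.5 FPKM in ZH11 normal libraries, a difference of 0.65 (standard error 0.12, adjusted p = 0.2 from edgeR). In both genes the OsJAZ1-OE drought pair was above the ZH11 drought pair while its normal libraries were lower than those of ZH11 in the terpene synthase gene and overlapped with them in the nmrA-like gene. LOC_Os01g74300, a gene expressed above 1000 FPKM in normal libraries, had 610.3 and 578 FPKM in OsJAZ1-OE drought and 1647, 1743 and 1588 FPKM in OsJAZ1-OE normal libraries, against 329 and 316 FPKM in ZH11 drought and 1423, 1242 and 1396 FPKM in ZH11 normal libraries. Its normal libraries were higher in OsJAZ1-OE too, and its difference was 0.55 (standard error 0.10, adjusted p = 0.19 from edgeR). The decrease was not shared by LOC_Os07g48500, which was at 1886 and 1718 FPKM in OsJAZ1-OE drought against 1101, 1133 and 1117 FPKM in OsJAZ1-OE normal libraries, and between 1154 and 1387 FPKM in all 5 ZH11 libraries. It gave a difference of 0.56 (standard error 0.09, adjusted p = 0.14 from edgeR).

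**Figure D2:**
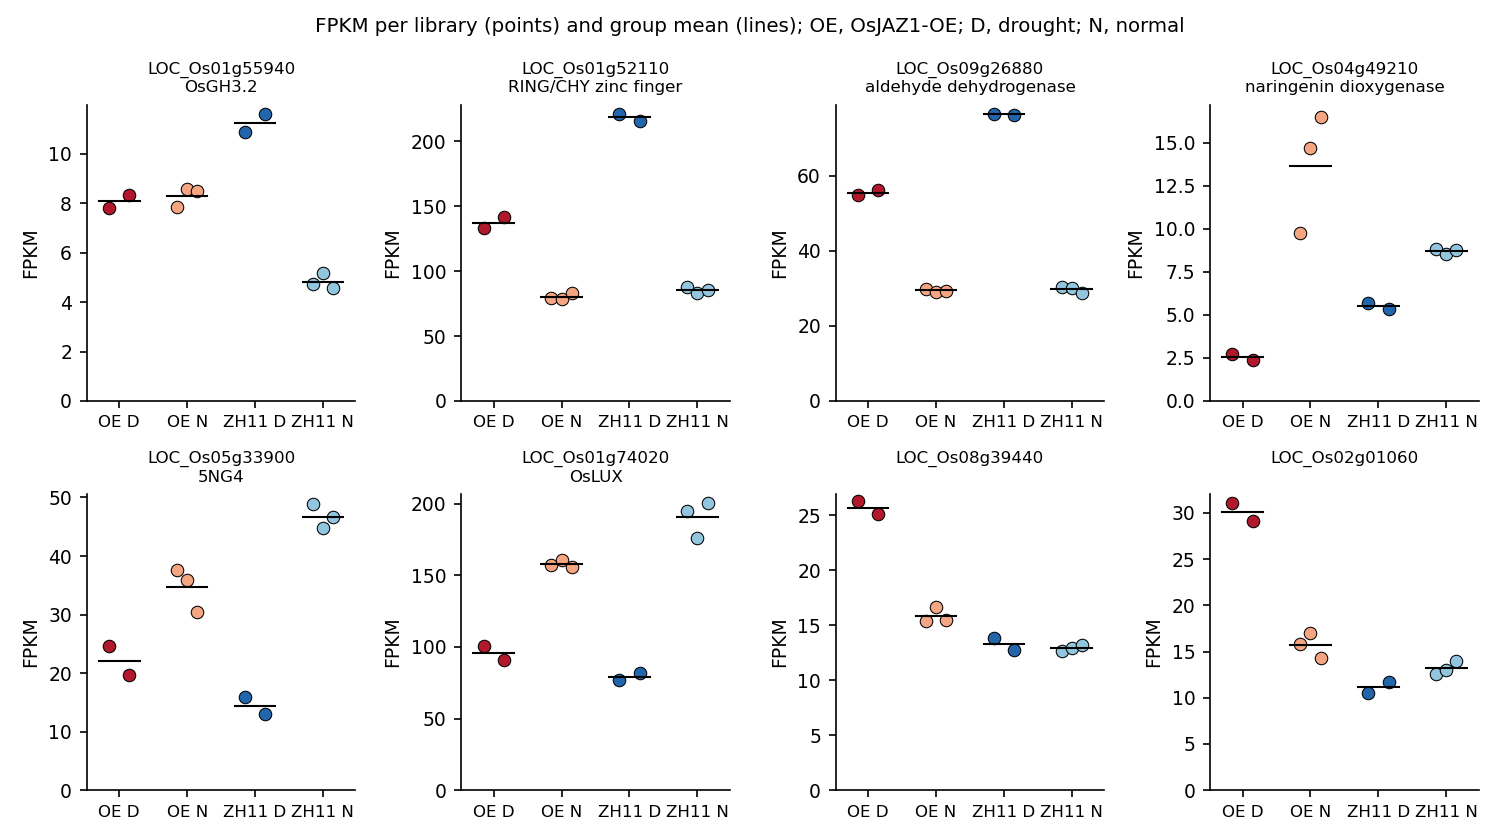
FPKM of 8 genes among those with the lowest p values for the difference, 1 panel per gene and 1 point per library, with OsJAZ1-OE (OE) drought (D) and normal (N) left of ZH11 drought and normal and a line at each group mean. In the panel of LOC_Os08g39440 the ZH11 groups lie level while the OsJAZ1-OE drought points lie above the OsJAZ1-OE normal points.

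At 7901 genes each genotype's own response had an adjusted p under 0.05 in edgeR, and at 10 of these the fitted responses had opposite signs, 4 with a positive and 6 with a negative difference. The 4 positive ones were LOC_Os02g03570, LOC_Os04g33310, LOC_Os01g37590 and LOC_Os04g41970, none of them annotated in the sources used here. LOC_Os02g03570 had 104 and 88.3 FPKM in OsJAZ1-OE drought and 62.8, 66.4 and 63.9 FPKM in OsJAZ1-OE normal libraries, against 78.1 and 61.2 FPKM in ZH11 drought and 94.6, 79.2 and 81.4 FPKM in ZH11 normal libraries, a difference of 0.80 (standard error 0.15, adjusted p = 0.19 from edgeR). LOC_Os04g33310 had 105 and 87.3 FPKM in OsJAZ1-OE drought and 80.9, 78.2 and 73.7 FPKM in OsJAZ1-OE normal libraries, against 73.5 and 65.3 FPKM in ZH11 drought and 85.2, 91.1 and 82.4 FPKM in ZH11 normal libraries, a difference of 0.66 (standard error 0.13, adjusted p = 0.21 from edgeR). In these genes the drought libraries were above the normal ones in OsJAZ1-OE and below them in ZH11. The others gave 0.57 and 0.70. Of the negative ones, LOC_Os01g33684 had the lowest p among those with a group mean of at least 5 FPKM, with 5.80 and 5.90 FPKM in OsJAZ1-OE drought and 7.37, 7.09 and 7.31 FPKM in OsJAZ1-OE normal libraries, against 3.95 and 4.13 FPKM in ZH11 drought and 3.31, 3.36 and 3.09 FPKM in ZH11 normal libraries. Its drought pair lay below the normal libraries in OsJAZ1-OE and above them in ZH11, and its difference was −0.54 (standard error 0.09, adjusted p = 0.14 from edgeR).

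OsJAZ1 itself (LOC_Os04g55920), the overexpressed repressor, had 1388 and 1177 FPKM in OsJAZ1-OE drought and 1281, 1199.8 and 1239 FPKM in OsJAZ1-OE normal libraries, against 147 and 126 FPKM in ZH11 drought and 117, 116 and 110.2 FPKM in ZH11 normal libraries. Transgene and endogenous copy cannot be told apart in these sums. The responses were −0.06 in OsJAZ1-OE and 0.26 in ZH11, a difference of −0.32 (standard error 0.09, unadjusted p = 0.0062 and adjusted p = 0.42 from edgeR). Its OsJAZ1-OE drought libraries enclosed the normal ones. DESeq2 gave the gene an adjusted p of 0.048, just inside its threshold, and each library left out gave −0.39 to −0.24.

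Gene lists were drawn up for the pathways around JA, ABA and drought, 28 lists with 222 genes whose locus could be checked. For some of these only the family or process could be checked. Of the 222 genes 213 were tested. None was called by edgeR at an adjusted p under 0.05, and 17 had a positive and 18 a negative difference at an unadjusted p under 0.05. These 35 genes were 16.4% of the 213, beside 8.44% of all genes and 13.4% of the 4970 most expressed genes, to which 85 of the 213 belonged. The 35 became 55 without ZH11 drought replicate 1, of which 2 were called, and 26 to 48 without each of the other libraries, with 7 called without ZH11 drought replicate 2. Medians below 0 were found for 16 of the 27 lists with more than 1 gene tested, and above 0 for 11, beside a median of 0.01 over all genes. For 12 of the 27 lists the median changed sign when some single library was left out.

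In the JA pathway the repressors and the transcription factors lay on the negative side with all libraries. All 9 JAZ genes tested had a negative difference, with a median of −0.44, and 1 of 9 was at an unadjusted p under 0.05. That gene was OsJAZ8 (LOC_Os09g26780), with 32.1 and 34.6 FPKM in OsJAZ1-OE drought and 23.7, 20.7 and 23.4 FPKM in OsJAZ1-OE normal libraries, against 50.1 and 41.6 FPKM in ZH11 drought and 23.7, 22.5 and 26.3 FPKM in ZH11 normal libraries, a difference of −0.34 (standard error 0.14, adjusted p = 0.54 from edgeR). Its drought libraries were higher in ZH11 while its normal libraries overlapped. Between the ZH11 drought libraries, all 9 JAZ genes were higher in replicate 1. Without replicate 1 the median of the list was 0.21, and without replicate 2 it was −0.71, with 6 of the 9 at an unadjusted p under 0.05 and 1 called. OsJAZ10 (LOC_Os03g08330) was at 82.8 and 67.6 FPKM in OsJAZ1-OE drought, against 369.6 and 51.8 FPKM in ZH11 drought replicates 1 and 2. Its difference of −1.32 (standard error 0.80, adjusted p = 0.7 from edgeR) became 0.72 without ZH11 drought replicate 1.

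The bHLH factors behaved alike. OsbHLH148 (LOC_Os03g53020), a factor of JA-dependent drought responses that binds JAZ proteins, was at 68.8 and 58.1 FPKM in OsJAZ1-OE drought and 359 and 32.0 FPKM in ZH11 drought replicates 1 and 2, with all normal libraries between 17.0 and 21.8 FPKM. OsbHLH006 (LOC_Os04g23550), a JA-inducible factor also known as RERJ1, was at 17.37 and 16.2 FPKM in OsJAZ1-OE drought and 121 and 15.9 FPKM in ZH11 drought. The differences were −1.54 and −1.23 (standard errors 0.92 and 1.18, adjusted p = 0.7 and 0.81 from edgeR), and without ZH11 drought replicate 1 they were 1.02 and 1.19. The direction of both therefore rested on 1 library.

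Most genes of JA synthesis and perception did not share this side. Of 14 genes tested 10 had a positive difference, with a median of 0.11, and 2 of them were at an unadjusted p under 0.05. The 2 became 1 without OsJAZ1-OE normal replicate 2 or ZH11 normal replicate 1. Without OsJAZ1-OE normal replicate 3, 1 negative difference was also at that p. The number changed without some drought libraries too, but those fits left 1 library in a group. The list median stayed at 0.08 to 0.15 without each library. Its lowest difference was that of OsOPR1 (LOC_Os06g11290), −0.92 (standard error 0.42, adjusted p = 0.59 from edgeR). The 12-oxophytodienoate reductase gene OsOPR7 (LOC_Os08g35740), which acts late in JA synthesis, had 47.9 and 44.5 FPKM in OsJAZ1-OE drought and 41.4, 43.0 and 44.6 FPKM in OsJAZ1-OE normal libraries, against 41.6 and 36.3 FPKM in ZH11 drought and 43.5, 41.8 and 40.5 FPKM in ZH11 normal libraries, a difference of 0.22 (standard error 0.09, adjusted p = 0.55 from edgeR). The lipoxygenase gene LOC_Os08g39850, of the enzymes that open JA synthesis, was at 1.87 and 1.13 FPKM in OsJAZ1-OE drought and 0.775 and 0.81 FPKM in ZH11 drought, with normal libraries between 2.44 and 3.65 FPKM. Its difference was 1.03 (standard error 0.33, adjusted p = 0.46 from edgeR).

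In the ABA pathway the medians of synthesis and breakdown and of the receptors lay between the quartiles of all genes. The 9 genes of ABA synthesis and breakdown had a median of −0.12, none at an unadjusted p under 0.05, and of 0.02 once OsJAZ1-OE drought replicate 2 was omitted or 0.03 once ZH11 drought replicate 1 was. OsNCED3 (LOC_Os03g44380), one of the dioxygenases that limit ABA synthesis, had 26.2 and 18 FPKM in OsJAZ1-OE drought and 1.46, 1.67 and 1.02 FPKM in OsJAZ1-OE normal libraries, against 28.3 and 30.9 FPKM in ZH11 drought and 1.33, 1.00 and 1.65 FPKM in ZH11 normal libraries, a difference of −0.45 (standard error 0.29, adjusted p = 0.71 from edgeR). OsNCED4 (LOC_Os07g05940) was spread in drought, at 23.1 and 6.97 FPKM in OsJAZ1-OE and 25.9 and 15.9 FPKM in ZH11, and its difference was −0.52 (standard error 0.81, adjusted p = 0.9 from edgeR), or 0.07 without OsJAZ1-OE drought replicate 2. The ABA receptor gene OsPYL6 (LOC_Os03g18600) had the lowest p of all listed genes but OsLUX. It had 9.47 and 9.58 FPKM in OsJAZ1-OE drought and 38.4, 31.8 and 34.3 FPKM in OsJAZ1-OE normal libraries, against 7.98 and 8.78 FPKM in ZH11 drought and 48.5, 48.9 and 56.7 FPKM in ZH11 normal libraries, with no overlap between drought and normal in either genotype and normal libraries lower in OsJAZ1-OE. Its difference was 0.77 (standard error 0.17, adjusted p = 0.26 from edgeR), and leaving out each library gave 0.70 to 0.85.

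Of 9 clade A PP2C phosphatases, which block SnRK2 kinases until ABA binds its receptor, 7 had a negative difference and 3 of these an unadjusted p under 0.05, with a median of −0.17. None was at that p without OsJAZ1-OE normal replicate 1 or 2, 1 was without OsJAZ1-OE drought replicate 2 or ZH11 normal replicate 1, and the median was −0.28 to −0.08 without each library. OsPP2C30 (LOC_Os03g16170) had 164 and 124 FPKM in OsJAZ1-OE drought and 15.4, 15.3 and 14.2 FPKM in OsJAZ1-OE normal libraries, against 141 and 166 FPKM in ZH11 drought and 12.3, 12.6 and 13.7 FPKM in ZH11 normal libraries, a difference of −0.35 (standard error 0.14, adjusted p = 0.53 from edgeR). Its drought libraries overlapped between the genotypes. OsPP2C06 (LOC_Os01g40094) had a difference of −0.25 and the bZIP factor gene OsbZIP23 (LOC_Os02g52780) of −0.22. For the 8 SnRK2 kinases the median was −0.13, and none was at an unadjusted p under 0.05.

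LEA proteins and dehydrins shield other proteins and membranes as cells dry, and of 7 tested 5 were negative, 2 of these at an unadjusted p under 0.05, with a median of −0.73. The other 2 were the dehydrin genes RAB16C and RAB16D, with differences of 0.05 and 1.01. OsLEA3 (LOC_Os05g46480) had 78.6 and 65.8 FPKM in OsJAZ1-OE drought and 1.80, 1.67 and 2.06 FPKM in OsJAZ1-OE normal libraries, against 80.0 and 198 FPKM in ZH11 drought and 1.21, 0.826 and 1.33 FPKM in ZH11 normal libraries, a difference of −1.65 (standard error 0.62, adjusted p = 0.5 from edgeR). RAB21 (LOC_Os11g26790) had 112 and 99.2 FPKM in OsJAZ1-OE drought and 2.84, 1.80 and 1.92 FPKM in OsJAZ1-OE normal libraries, against 79.2 and 218 FPKM in ZH11 drought and 1.097, 0.794 and 0.97 FPKM in ZH11 normal libraries, a difference of −1.72 (standard error 0.69, adjusted p = 0.54 from edgeR). The ZH11 drought pair differed more than 2-fold in both genes. The OsJAZ1-OE drought pair lay below it for OsLEA3 and within it for RAB21, and the OsJAZ1-OE normal libraries of both genes were above the ZH11 normal ones. These were the 2 genes called without ZH11 drought replicate 1, with differences of −2.16 and −2.27 (adjusted p = 0.025 for each from edgeR). Without replicate 2 they were −0.87 and −0.79. The list median likewise was −1.20 without replicate 1 and −0.20 without replicate 2, and −0.22 without OsJAZ1-OE drought replicate 2.

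Of 8 genes for osmolyte enzymes, which act on proline and sugars that hold water, 7 were negative and 2 of these at an unadjusted p under 0.05. The positive one was OsProDH (LOC_Os10g40360), annotated as a mitochondrial proline oxidase, with a difference of 0.34. The 2 became 3 without OsJAZ1-OE normal replicate 1 and 1 without replicate 2 or 3 of that group. Without OsJAZ1-OE normal replicate 1, 1 positive difference was also at an unadjusted p under 0.05. The number changed without some drought libraries too, but those fits left 1 library in a group. The list median was −0.35 and stayed between −0.41 and −0.26 without each library. OsP5CS1 (LOC_Os05g38150), for proline synthesis, had 18.9 and 21.2 FPKM in OsJAZ1-OE drought and 11.1, 12.5 and 13.3 FPKM in OsJAZ1-OE normal libraries, against 22.3 and 21.5 FPKM in ZH11 drought and 10.8, 11.9 and 9.85 FPKM in ZH11 normal libraries, a difference of −0.30 (standard error 0.11, adjusted p = 0.49 from edgeR). The trehalose-6-phosphate synthase gene OsTPS1 (LOC_Os05g44210) had a difference of −0.36 (standard error 0.14, adjusted p = 0.51 from edgeR), with 3.72 and 4.07 FPKM in OsJAZ1-OE drought and 7.70, 9.57 and 9.90 FPKM in OsJAZ1-OE normal libraries, against 5.07 and 4.67 FPKM in ZH11 drought and 8.96, 8.34 and 8.71 FPKM in ZH11 normal libraries.

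Heat shock proteins, which refold damaged proteins, and their transcription factors were 18 of the genes tested. Of these 16 had a negative difference, 4 of them at an unadjusted p under 0.05, beside 3.94% of all genes in that direction. The median was −0.67, and DESeq2 called 2 of the 18. The 4 became 11 without OsJAZ1-OE drought replicate 2, 9 without ZH11 drought replicate 1 and 3 to 5 without each of the other libraries. The HSP90 gene LOC_Os04g01740 had 5.91 and 11.6 FPKM in OsJAZ1-OE drought and 1.40, 5.26 and 5.91 FPKM in OsJAZ1-OE normal libraries, against 19.5 and 42.0 FPKM in ZH11 drought and 1.13, 2.43 and 1.46 FPKM in ZH11 normal libraries. The ZH11 drought pair was the highest, and the OsJAZ1-OE drought and normal libraries overlapped. The difference was −3.16 (standard error 0.80, adjusted p = 0.39 from edgeR), with −3.85 to −2.50 without each library. OsHsfA2c (LOC_Os10g28340), a heat shock transcription factor, had 16.6 and 23.4 FPKM in OsJAZ1-OE drought and 17.2, 18.4 and 19.2 FPKM in OsJAZ1-OE normal libraries, against 29.8 and 41.6 FPKM in ZH11 drought and 19.6, 18.9 and 19.2 FPKM in ZH11 normal libraries, with drought above normal without overlap in ZH11 only, and a difference of −0.79 (standard error 0.21, adjusted p = 0.39 from edgeR, 0.025 from DESeq2). When only its main transcript was counted the difference was 0.26. The small heat shock protein gene OsHSP17.9A (LOC_Os01g08860) had 207 and 353 FPKM in OsJAZ1-OE drought and 90.2, 126 and 178 FPKM in OsJAZ1-OE normal libraries, against 429.7 and 678 FPKM in ZH11 drought and 106, 154 and 94.8 FPKM in ZH11 normal libraries, a difference of −1.18 (standard error 0.46, adjusted p = 0.53 from edgeR).

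Drought replicate 1 was below replicate 2 in these heat shock genes in both genotypes, with a median log2 ratio of −0.73 in OsJAZ1-OE and −0.77 in ZH11. None of the 18 was higher in ZH11 drought replicate 1. Leaving out replicate 1 of ZH11 drought gave a list median of −0.86, and leaving out replicate 2 gave −0.15. For OsJAZ1-OE drought the same gave −0.45 and −0.98.

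**Figure D3:**
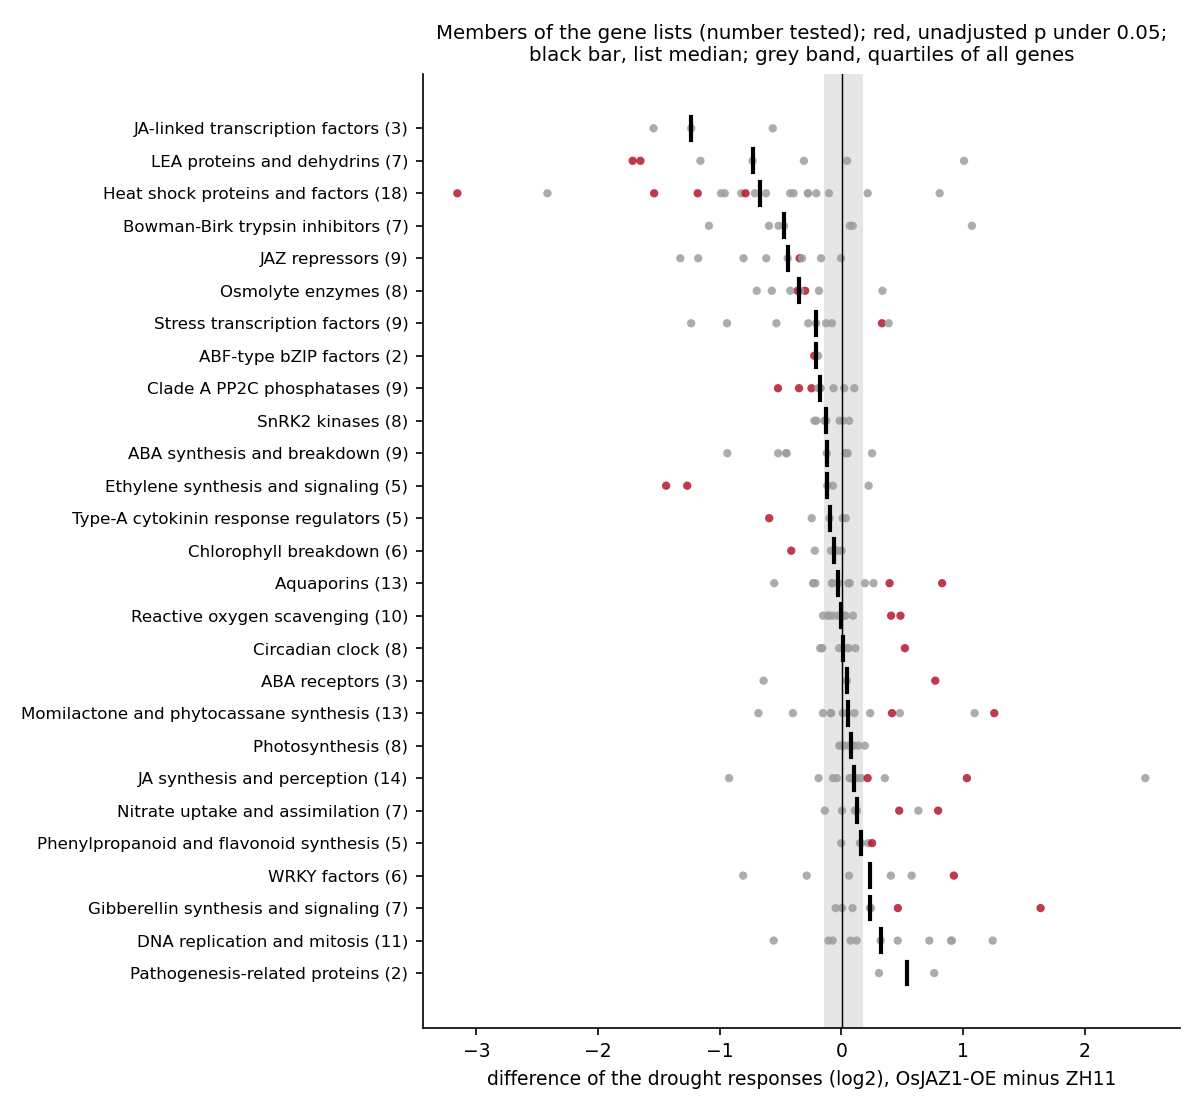
Difference of the drought responses (log2, OsJAZ1-OE minus ZH11) of each gene tested in the 27 gene lists with more than 1 gene tested, 1 row per list and 1 point per gene, with a bar at the list median and a grey band between the quartiles of all genes. Red points mark an unadjusted p under 0.05 in edgeR, and the heat shock row holds 4 of them, all below 0.

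Among the other hormones, both ACC oxidase genes at an unadjusted p under 0.05 had a negative difference. These enzymes carry out the last step of ethylene synthesis. OsACO2 (LOC_Os09g27750) had 12.7 and 13.1 FPKM in OsJAZ1-OE drought and 29.3, 42.0 and 64.1 FPKM in OsJAZ1-OE normal libraries, against 24.6 and 15.3 FPKM in ZH11 drought and 23.3, 26.2 and 27.2 FPKM in ZH11 normal libraries, a difference of −1.44 (standard error 0.40, adjusted p = 0.4 from edgeR). OsACO1 (LOC_Os09g27820) had a difference of −1.27 (standard error 0.40, adjusted p = 0.46 from edgeR). The OsJAZ1-OE normal libraries of OsACO2 spanned more than 2-fold. OsRR1 (LOC_Os04g36070), a type-A regulator of cytokinin signaling, was lower under drought in both genotypes, with a difference of −0.59 (standard error 0.18, adjusted p = 0.43 from edgeR). Of 7 gibberellin genes 6 had a positive difference, with a median of 0.23, or 0.07 to 0.29 without each library. OsGA2ox4 (LOC_Os05g43880) and SD1 were at an unadjusted p under 0.05 in edgeR. None of the list was without OsJAZ1-OE normal replicate 1, and 1 was without OsJAZ1-OE normal replicate 3 or ZH11 normal replicate 1. The number also changed without each drought library, but those fits left 1 library in a group. OsGA2ox4, annotated as a gibberellin 2-beta-dioxygenase, had a difference of 1.64 (standard error 0.67, adjusted p = 0.55 from edgeR). SD1 (LOC_Os01g66100), the gibberellin 20-oxidase gene of the semidwarf varieties, had 22.8 and 17.37 FPKM in OsJAZ1-OE drought and 12.9, 16.3 and 12.4 FPKM in OsJAZ1-OE normal libraries, against 25.7 and 25.2 FPKM in ZH11 drought and 21.5, 22.7 and 26.4 FPKM in ZH11 normal libraries, a difference of 0.46 (standard error 0.20, adjusted p = 0.56 from edgeR).

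Of 10 genes of reactive oxygen scavenging, 5 had a positive and 5 a negative difference, with a median of −0.01, and 2 of the positive ones were at an unadjusted p under 0.05. CatA (LOC_Os02g02400), for a catalase that breaks down hydrogen peroxide, had 399 and 355 FPKM in OsJAZ1-OE drought and 614, 661 and 592 FPKM in OsJAZ1-OE normal libraries, against 278 and 236 FPKM in ZH11 drought and 591, 521 and 544 FPKM in ZH11 normal libraries, a difference of 0.41 (standard error 0.12, adjusted p = 0.41 from edgeR). OsAPX7 (LOC_Os04g35520), a chloroplast ascorbate peroxidase gene, had 49.4 and 42.4 FPKM in OsJAZ1-OE drought and 73.3, 66.2 and 73.4 FPKM in OsJAZ1-OE normal libraries, against 34.4 and 27.7 FPKM in ZH11 drought and 67.7, 61.6 and 69.7 FPKM in ZH11 normal libraries, a difference of 0.49 (standard error 0.14, adjusted p = 0.4 from edgeR). In both the OsJAZ1-OE drought pair lay above the ZH11 drought pair. Of 13 aquaporin genes 6 had a positive and 7 a negative difference, with a median of −0.02. The aquaporin gene OsTIP4;1 (LOC_Os05g14240), for a water channel of the vacuole membrane, had 436 and 357 FPKM in OsJAZ1-OE drought and 469, 500.1 and 438 FPKM in OsJAZ1-OE normal libraries, against 351 and 324 FPKM in ZH11 drought and 529, 501 and 534 FPKM in ZH11 normal libraries, a difference of 0.40 (standard error 0.11, adjusted p = 0.41 from edgeR). OsPIP2;4 (LOC_Os07g26630) was the other aquaporin gene at an unadjusted p under 0.05, with a difference of 0.83.

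Nitrate uptake and assimilation had 6 of 7 genes on the positive side, 2 of them at an unadjusted p under 0.05, or 0 to 2 without each library. OsNRT2.3 (LOC_Os01g50820), a high-affinity nitrate transporter gene, gave 0.79, and the nitrate reductase gene NIA1 (LOC_Os08g36480) gave 0.47 (adjusted p = 0.48 and 0.56 from edgeR). Photosynthesis had 7 of 8 genes on the positive side, none at that p, and all between −0.02 and 0.19. For chlorophyll breakdown, NOL (LOC_Os03g45194), a chlorophyll b reductase gene, had 44.8 and 49.0 FPKM in OsJAZ1-OE drought and 23.6, 21.0 and 18.1 FPKM in OsJAZ1-OE normal libraries, against 69.5 and 68.6 FPKM in ZH11 drought and 25.3, 20.9 and 23.6 FPKM in ZH11 normal libraries, a difference of −0.41 (standard error 0.16, adjusted p = 0.51 from edgeR), and the other 5 genes of the list were not at an unadjusted p under 0.05. In the circadian clock list OsLUX (LOC_Os01g74020), a MYB factor whose Arabidopsis counterpart belongs to the evening complex, had 100.4 and 90.8 FPKM in OsJAZ1-OE drought and 157, 161 and 156 FPKM in OsJAZ1-OE normal libraries, against 77.0 and 81.7 FPKM in ZH11 drought and 195, 176 and 201 FPKM in ZH11 normal libraries, lower under drought in both genotypes. Its difference was 0.52 (standard error 0.09, adjusted p = 0.14 from edgeR), with 0.48 to 0.58 when each library was left out and an adjusted p of 1.8e-04 from DESeq2.

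For the defense lists, 2 of 13 genes of momilactone and phytocassane synthesis, the diterpene antimicrobials of rice, were at an unadjusted p under 0.05. They were OsMAS (LOC_Os04g10010) with 1.26 and OsCPS2 (LOC_Os02g36210) with 0.42, and the list median was 0.05, or −0.10 to 0.35 without each library. OsWRKY62 (LOC_Os09g25070), a WRKY factor of defense responses, had 7.50 and 6.59 FPKM in OsJAZ1-OE drought and 23.1, 11.3 and 13.9 FPKM in OsJAZ1-OE normal libraries, against 4.14 and 3.78 FPKM in ZH11 drought and 20.6, 13.4 and 17.3 FPKM in ZH11 normal libraries, a difference of 0.92 (standard error 0.42, adjusted p = 0.59 from edgeR). Of 6 WRKY genes tested 4 had a positive difference, and the median was 0.23. OsWRKY71 and OsWRKY24 were the negative ones, with −0.81 and −0.29. OsWRKY62 alone was at an unadjusted p under 0.05 in edgeR. None was without OsJAZ1-OE normal replicate 2 or 3 or ZH11 normal replicate 1, and 3 were without OsJAZ1-OE normal replicate 1. The number also changed without each drought library, but those fits left 1 library in a group. The WRKY median was 0.87 without ZH11 drought replicate 1 and 0.01 without replicate 2. The Bowman-Birk trypsin inhibitors, which block insect and other proteases, had a median of −0.47 over 7 genes, none at an unadjusted p under 0.05. It was 0.08 without ZH11 drought replicate 2, where each of the 7 had its higher ZH11 drought level. The stress transcription factors had a median of −0.21 over 9 genes, which was 0.28 with 5 of 9 positive without ZH11 drought replicate 1, and the homeobox gene Oshox6 (LOC_Os09g35910) was the only one of them at that p, with a difference of 0.33. The root marker Lsi1 (LOC_Os02g51110), a silicon channel gene, had a difference of −0.47 (standard error 0.19, adjusted p = 0.54 from edgeR).

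The ZH11 drought libraries decided a further set. Without ZH11 drought replicate 2 edgeR called 123 of 25376 genes (0.485%), 6 positive and 117 negative, and 118 of the 123 had more FPKM in the remaining ZH11 drought library than in the one left out. With all libraries 40 of them were at an unadjusted p under 0.05. The median difference of the 123 was −1.15 without replicate 2, −0.62 with all libraries and 0.19 without replicate 1. The NADP-dependent oxidoreductase gene LOC_Os04g41960 was one, at 113 and 91.7 FPKM in OsJAZ1-OE drought and 469.9 and 93.0 FPKM in ZH11 drought, with normal libraries between 20.5 and 24.5 FPKM. Its difference was −1.58 with all libraries and 0.02 without ZH11 drought replicate 1.

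**Figure D4:**
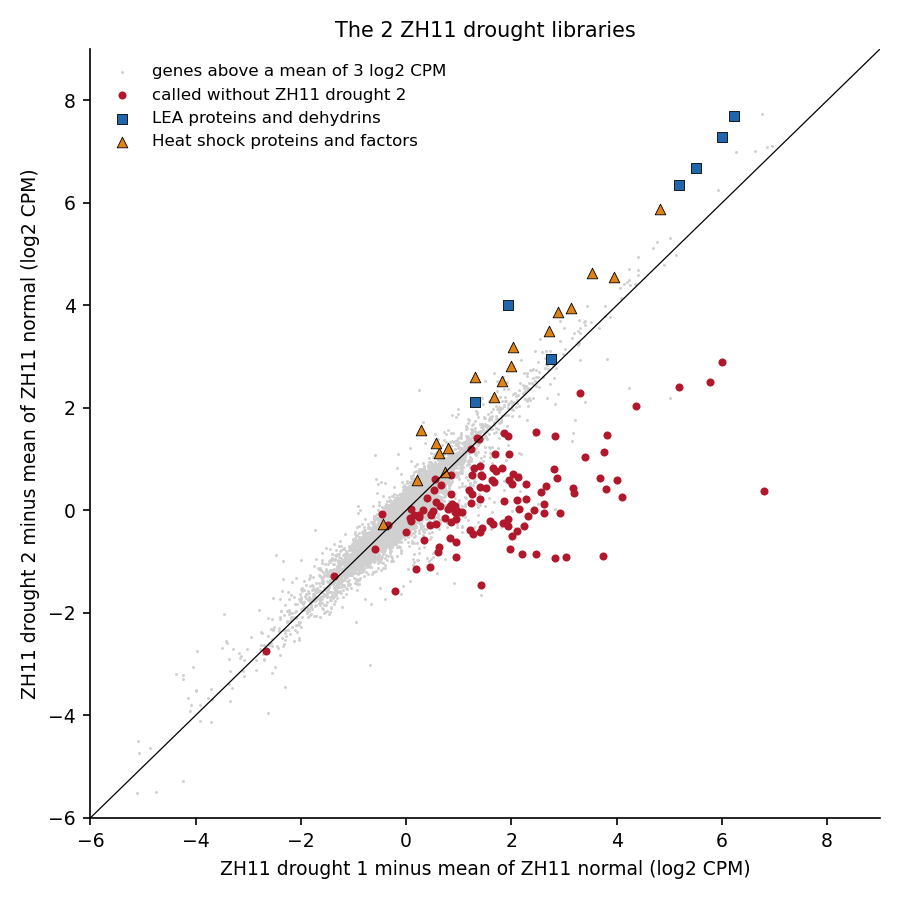
ZH11 drought replicate 1 (horizontal) and replicate 2 (vertical), each minus the mean of the ZH11 normal libraries, in log2 CPM (counts scaled to the library total), 1 point per gene. Red points mark the genes called without ZH11 drought replicate 2, nearly all below the diagonal, and the LEA genes (squares) and heat shock genes (triangles) lie above it.

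The stress-inducible AP2-type transcription factor gene OsDREB1B (LOC_Os09g35010) was the clearest case of this spread among the genes the study tested by qPCR. It was at 23.1 and 16.7 FPKM in OsJAZ1-OE drought and 1.73, 0.964 and 1.06 FPKM in OsJAZ1-OE normal libraries, against 162 and 1.91 FPKM in ZH11 drought replicates 1 and 2 and 1.39, 2.72 and 2.53 FPKM in ZH11 normal libraries. The difference was −1.24 (standard error 1.94, adjusted p = 0.9 from edgeR) with all libraries, 4.15 without ZH11 drought replicate 1 and −2.22 without replicate 2. OsDREB1A (LOC_Os09g35030) followed it, at 4.20 and 4.14 FPKM in OsJAZ1-OE drought and 27.9 and 0.501 FPKM in ZH11 drought, with −0.94 for all libraries and 3.94 without replicate 1. These data set no direction for either gene.

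**Figure D5:**
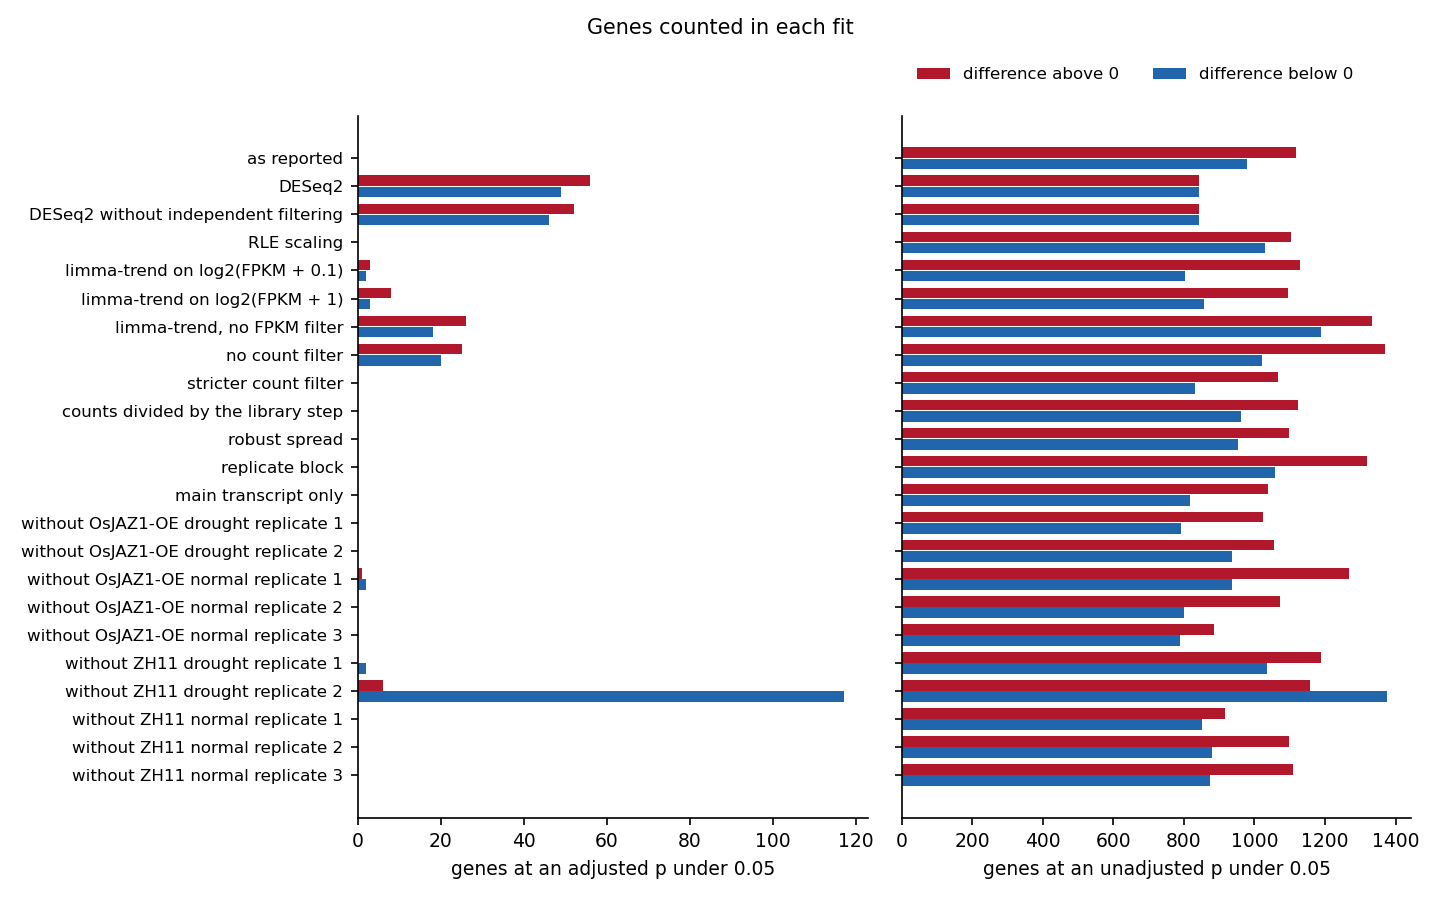
Number of genes at an adjusted p under 0.05 (left) and at an unadjusted p under 0.05 (right) for the difference of the responses, with 1 pair of bars per setting, red for differences above and blue for those below 0. At the adjusted p there is no gene as reported, 56 and 49 for DESeq2, and 6 and 117 without ZH11 drought replicate 2.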

How the data were processed

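The series holds RNA-seq of rice shoots, 10 libraries in 4 groups. The files the authors deposited give, per transcript, an FPKM value and an expected count, the fragments estimated for it, which the authors obtained through BMKCloud. The submitters' processing notes name TopHat2, Picard, SAMtools 0.1.18 and GATK without roles, and no source used here names the quantifier or the genome build. The deposited expected counts appear to carry 1 factor per library, since per library 89.6 to 90.8% of genes with at most 1000 fragments had a whole multiple (to within 0.01) of a step, 0.884 to 1.19 in size.

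Counts and FPKM were summed per gene ID over 101273 transcripts. Summed counts were rounded, filtered with filterByExpr and TMM-normalized, and a quasi-likelihood model with 1 mean per group was fitted to the 10 libraries in edgeR 4.0.16 (R 4.3.3). The contrast was OsJAZ1-OE drought minus normal, minus ZH11 drought minus normal, and p values were adjusted by Benjamini-Hochberg over 24850 genes, with 0.05 as the threshold for a call. The model was tested on simulated counts. Alternatives were DESeq2 1.42.0, RLE scaling, limma-trend (limma 3.58.1) on log2 of FPKM plus 0.1 or plus 1 (genes with at least 0.5 FPKM in 2 libraries, or no filter), no count filter, a filter of 50 counts, counts divided by the step, a robust spread, the replicate number as a block, a fold limit, the main transcript only, and each library left out. DESeq2 without independent filtering was added after seeing the data.

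Members, gene lists and tests were chosen with earlier results of these data known, so no list is independent support. Of 314 listed genes 222 were used and 92 were dropped. Symbol and position in a RefSeq rice gene table of another assembly placed 186, and the study's annotation or gene ontology terms the other 36. Most of these 36 entries give a family or process and not the member, as for OsLUX and OsPYL6. Named genes are OsJAZ1 and genes the study tested by qPCR, the 15 with the lowest p in each direction among genes of at least 5 FPKM in a group mean, 2 or 3 per list, 5 per direction of those called by an alternative, and 5 per direction of those with opposite responses; genes without annotation may be left out. SNAC1 and OsCCD1 were not analysed here.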

Additional observations from a re-analysis of the deposited data

How the results depend on the processing

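The number of genes called at an adjusted p under 0.05 depended on the model. It was 0 in edgeR as reported, with RLE scaling, a stricter count filter, counts divided by the step, a robust spread and the main transcript only. A fold limit can only remove calls, so with 0 calls it could not give another number. It was 105 in DESeq2, 98 in DESeq2 without independent filtering, 5 in limma-trend on log2 of FPKM plus 0.1, 11 with FPKM plus 1, 44 with no FPKM filter and 45 in edgeR with no count filter. The cause was not tested. Leaving out each library gave 0 to 123 calls. Leaving out ZH11 drought replicate 2 gave the 123, OsJAZ1-OE normal replicate 1 gave 3, ZH11 drought replicate 1 gave 2, and each of the other 7 gave 0. A drought group left with 1 library was assumed to vary like the others.

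At an unadjusted p under 0.05 the count of 2097 ranged from 1672 to 2532 without each library, positive differences from 884 to 1267 and negative ones from 788 to 1376. With the replicate number as a block 0 genes were called and 2376 were at an unadjusted p under 0.05. In the heat shock list that fit gave a median of −0.67, with 10 genes below 0 at an unadjusted p under 0.05 in place of 4, and among all listed genes 50 in place of 35. Same-numbered libraries correlated in their deviations from group means with r of −0.10 to 0.24, mostly above 0. For libraries of different number r was −0.24 to 0.22, mostly below 0. Deviations sum to 0 within a group, so these values partly follow from the same-numbered ones and are not a separate result. The numbers were not taken to pair the samples, since no source used here says what they mark. Whether same-numbered libraries share an effect was not tested.

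The median difference over all genes, 0.01 as reported, was −9.3e-05 with FPKM plus 0.1, −0.0021 with FPKM plus 1, −0.0083 with no FPKM filter and 0.018 with the main transcript only, and −0.0050 to 0.026 without each library.

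Over 62 of the genes named in the text, 1350 of 1364 values under the alternatives kept their sign. Of these genes 31 passed the adjusted threshold under at least 1 alternative. Many of the genes were named for a low p in the same data or for a call by an alternative. Both counts therefore describe these genes only and do not carry over to all genes tested. The exceptions in sign were in 8 genes. Leaving out each library gave −2.14 to 0.72 for OsJAZ10, −2.42 to 1.02 for OsbHLH148, −2.09 to 1.19 for OsbHLH006, −2.32 to 0.019 for LOC_Os04g41960, −2.22 to 4.15 for OsDREB1B and −1.91 to 3.94 for OsDREB1A, each with its highest value without ZH11 drought replicate 1, and −1.52 to 0.068 for OsNCED4, highest without OsJAZ1-OE drought replicate 2. Limma-trend gave OsDREB1B 0.89 with FPKM plus 0.1, with or without the filter, and 0.42 with FPKM plus 1, and OsDREB1A 0.91 and 0.088 in the same settings. OsHsfA2c was at 0.26 with its main transcript only. Of the list medians under the alternatives, 60 moved by more than their spread and 534 did not.

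Depth limited the low genes, with a median half-width of the 95% interval of 1.36 in the 4970 least expressed genes. With 2 drought libraries per genotype and 1 transgenic line, differences below that width cannot be told from 0 there, and differences among lines were not measured.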

Other observations

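Other genes were called where no filter on low values was applied. Limma-trend on log2 of FPKM plus 0.1 with no filter called 44 genes, and 35 of them were listed at 0 in every library of at least 1 group, 31 in 3 of the 4 groups. LOC_Os01g58930 was at 4.05 and 3.95 FPKM in the OsJAZ1-OE drought libraries and listed at 0 in the other 8. LOC_Os03g05550 was listed at 0 in all libraries but those of ZH11 drought, which held 4.83 and 4.60 FPKM. Only 10 of the 44 had enough counts for the edgeR test with its filter, whereas all 45 genes that edgeR called without the filter had them, and 33 of these 45 were also called by DESeq2.

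OsGH3.2 (LOC_Os01g55940) and LOC_Os02g01060 were called by the most alternatives, 7 each. Without OsJAZ1-OE normal replicate 1 edgeR called 3 genes, LOC_Os04g49210, LOC_Os03g02460 and LOC_Os10g26340. For LOC_Os10g26340 that library held 21.5 FPKM and the other OsJAZ1-OE normal libraries 82.8 and 77.7 FPKM.

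The 11 DNA replication and mitosis genes had a median difference of 0.32 on the log2 scale, 8 of them positive and none at an unadjusted p under 0.05 in edgeR, but limma-trend gave a median of −0.20 on log2 of FPKM plus 1, with 0 positive, and −0.07 on FPKM plus 0.1. It was also −0.07 when either OsJAZ1-OE drought replicate 2 or ZH11 normal replicate 2 was omitted, so these genes had no stable direction. Of 5 phenylpropanoid and flavonoid genes 4 were positive, with a median of 0.16.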
